A study of Mus musculus with 6 samples.

Results

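The collagen chains were compared between dedifferentiated fat (DFAT) cells and mature adipocytes (AC) of the mouse. A probe set was taken as a member when its annotation gave 1 gene symbol made of Col, a number, the letter a and a number. This gave 82 of the 45037 probe sets tested and 42 of the 18193 named genes. RefSeq lists 44 mouse genes with such a symbol, and Col6a6 and Col28a1 were not analysed here. RNA was measured on Affymetrix Mouse Genome arrays, 3 of DFAT cells and 3 of AC. The arrays belong to a study of transcription factors that turn fat-derived cells toward hepatocytes, in which DFAT cells were the starting cells. DFAT cells are a proliferating preadipocyte line from GFP transgenic mice. They were obtained by ceiling culture, in which floating lipid-laden adipocytes attach, lose their fat and divide. The methods of the study describe their culture on dishes coated with type I collagen, and growth to semiconfluence before differentiation. Those methods do not say whether this held for the DFAT cells on the arrays. AC were mature fat cells taken directly from mouse adipose tissue. No treatment is given for either group, and the sources used here are silent on strain, age, sex and fat depot, and on whether the AC carried GFP. Whether each array had its own animal or culture is likewise not stated. The p-values therefore cover the spread among these 6 arrays alone, which may be technical, and the DFAT arrays may all be of the same line.

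Collagens are proteins of 3 alpha chains wound into a triple helix, and the chains of each type come from separate genes. Fibrillar collagens such as types I, III and V form the cables of connective tissue. Type IV collagen forms the sheet of the basement membrane, the thin matrix that encloses each adipocyte in fat tissue, while type VI forms beaded filaments around it. Fibril-associated collagens sit on the surface of fibrils, and the transmembrane collagens stay anchored in the cell membrane.

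All values are log2 RMA expression values, and a difference is DFAT cells minus AC. A gene was called higher or lower when the limma p-value, adjusted over all 45037 probe sets, was under 0.05, and where a gene had several probe sets, the one that was brightest on average across the arrays represents it. Of the 42 collagen genes, 16 were higher in DFAT cells, which is 38.1% against 22.6% of all named genes. A further 9, or 21.4%, were lower, against 23.8% of all named genes, and 17 did not pass the test. In either direction 46.4% of all named genes passed. At least 4-fold differences were found in 9 collagen genes higher in DFAT cells and in 2 lower, against 4.78% and 6.65% of all named genes. The count of lower genes depended on the scaling, with 15 after centring the arrays on reference genes and 3 on hybridization controls, while 14 and 16 genes were then higher. The shares of all named genes moved as well. With reference genes 50.2% were lower and 15.9% higher, and with hybridization controls 11% were lower and 28.1% higher. The median difference of the 42 genes was 0.01, against -0.10 over all named genes, and the differences spanned -2.72 to 5.96. The values of the 3 DFAT arrays and the 3 AC arrays did not overlap in 27 collagen genes, or 64.3%, against 60% of all named genes.

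Many collagen genes gave only background signal. As a stand-in for a detection call, the 95th percentile of signals from genes of the retina, lens, inner ear and sperm was taken as each array's background level. It lay between 5.65 and 5.80 on the DFAT arrays and between 5.68 and 6.04 on the AC arrays. In both groups 19 collagen genes, or 45.2%, lay at or under this level on every array, against 36.9% of all named genes, and 6 of the 25 calls were of such genes. Those 6 calls compare signals that are no higher than those of genes of other organs. Of the 23 genes above background on at least 1 array, DFAT cells were higher in 14 and lower in 5. Among all 11483 named genes above background 34.2% were higher and 29.9% were lower. Being above background in only 1 group favours a difference between the groups, so these shares are a description. With a background level at the 90th percentile 16 collagen genes lay at background in both groups, and at the 99th percentile 20 did.

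The fat-cell identity of the groups was checked first. All 10 adipocyte markers were lower in DFAT cells, where 5 were at background, against 0 in AC, and their mean on an array lay between 6.72 and 6.77 in DFAT cells and between 12.40 and 12.66 in AC. AC also carried markers of other cells of fat tissue. The summed log2 level of 12 endothelial markers, all lower in DFAT cells, was 52.1 to 52.5 on the DFAT arrays and 95.2 to 119 on the AC arrays, and 9 of them were at background in DFAT cells. Of 12 macrophage and leukocyte markers 11 were lower in DFAT cells, with sums of 50.3 to 51.8 on the DFAT arrays and 77.3 to 99.9 on the AC arrays. Of 8 stromal progenitor and fibroblast markers DFAT cells had 2 higher and 5 lower, with sums of 44.5 to 45.1 against 62.6 to 67.1 on the AC arrays. Of 9 mural and smooth muscle markers 2 were higher and 7 were lower, with sums of 60.0 to 60.3 on the DFAT arrays and 77.9 to 82.2 on the AC arrays. Of 9 epithelial and mammary markers 8 were lower in DFAT cells, with sums of 34.3 to 36.1 against 74.3 to 79.3 on the AC arrays. The part of these other cells in the collagen values was not tested. In such bulk samples fewer cells of a type and less RNA per cell cannot be told apart.

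One array stood apart from its group. AC replicate 1 correlated at 0.969 to 0.971 with the other AC arrays, which correlated at 0.991 with each other, while the DFAT arrays correlated at 0.995 to 0.996. It had a higher endothelial mean (9.92) than AC replicates 2 and 3 (8.09 and 7.93) and a lower macrophage mean (6.44 against 8.20 and 8.33). Its stromal progenitor and fibroblast mean was lower too (7.82 against 8.39 and 8.31). The mural mean was higher on it (9.13 against 8.65 and 8.71), as was the epithelial mean (8.82 against 8.44 and 8.26). Among the 14 collagen genes above background and higher in DFAT cells, 10 had their lowest AC value on this array. The median SD of the 23 collagen genes above background was 0.0737 over the DFAT arrays and 0.285 over the AC arrays, and it was larger over the AC arrays in 21 of them. Without AC replicate 1, 16 collagen genes were higher and 10 were lower, Col4a4 being the gene added. Over all probe sets 20.3% were called higher and 18.1% lower in DFAT cells, 38.4% together, so that 52.9% of the calls were higher. That split depends on the scaling, with 63.0% higher after centring on array medians, 23.2% on reference genes and 78.5% on hybridization controls.

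**Figure D1:**
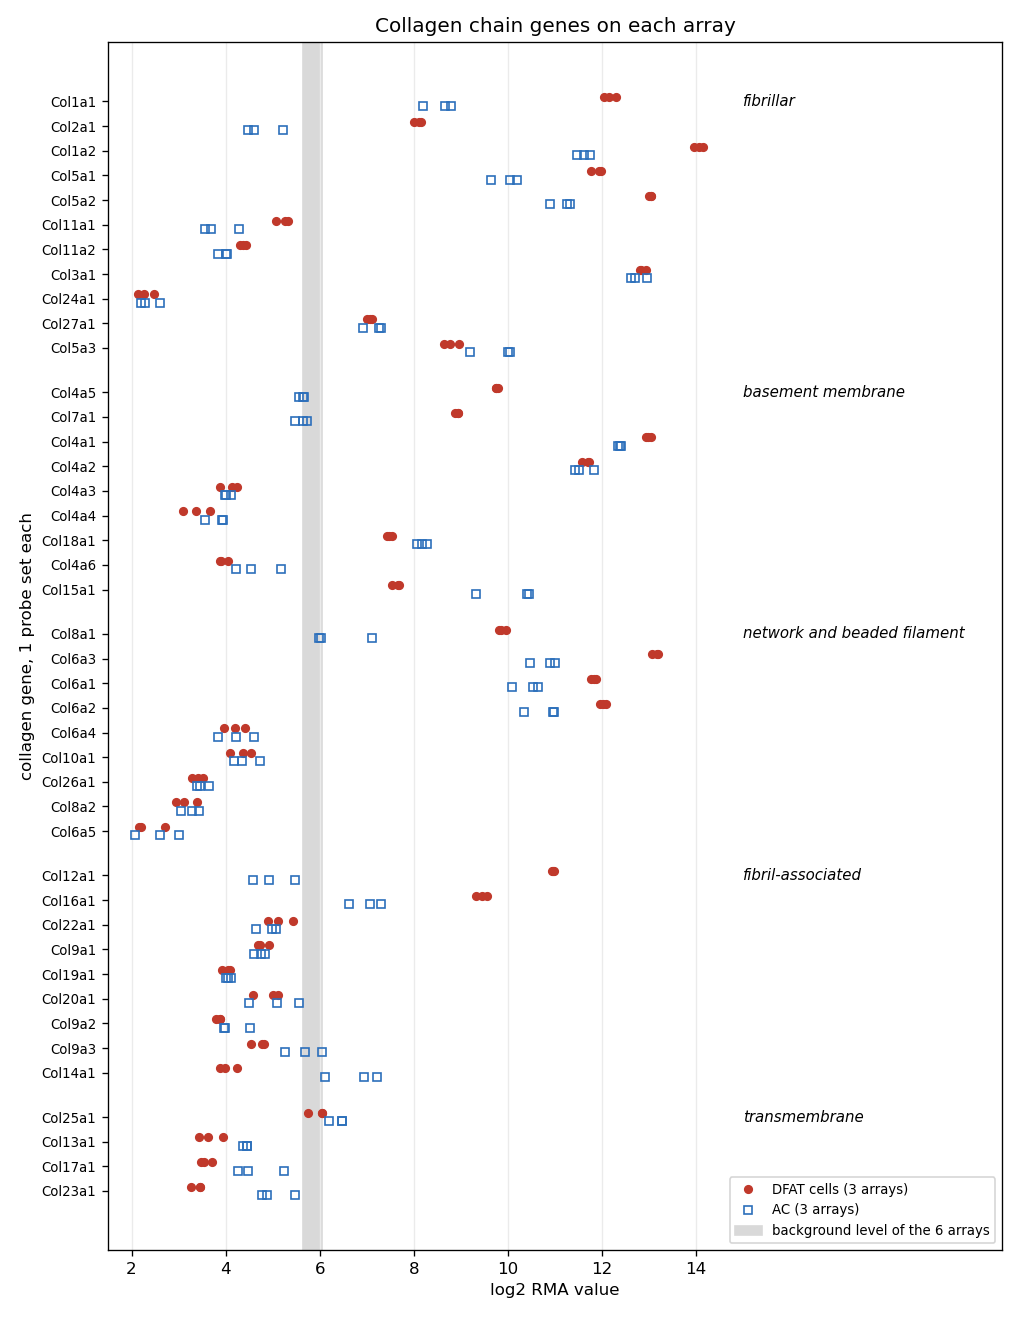
Log2 RMA expression values of the collagen genes on each array, grouped by class, filled circles for the 3 DFAT arrays above open squares for the 3 AC arrays and a grey band for the range of the background levels of the 6 arrays. DFAT values lie to the right of AC values for most fibrillar genes, as for Col1a1 at 12.05 to 12.29 against 8.19 to 8.79, and to the left for Col15a1 and Col14a1.

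Of the 11 fibrillar collagens 7 were called higher in DFAT cells, 5 of them above background and 2 at background in both groups. A further 1 was lower and 3 missed the threshold, and the median difference was 1.38. Over all named genes 22.6% were higher and 23.8% lower. Both chains of type I collagen, the main collagen of skin, bone and scar, were among those higher. Col1a1 measured 12.05, 12.14 and 12.29 on the DFAT arrays and 8.19, 8.79 and 8.65 on the AC arrays. All DFAT values lay above all AC values, and the means of 12.16 ± 0.12 in DFAT cells and 8.54 ± 0.32 in AC (SD, n = 3 each) differed by 3.62 (95% confidence interval 3.19 to 4.04, limma adjusted p = 2.71e-06), or 12.3-fold. Col1a2, the second chain of type I, measured 13.96, 14.06 and 14.14 in DFAT cells and 11.46, 11.61 and 11.75 in AC. The groups again did not overlap, and the means of 14.05 ± 0.09 in DFAT cells and 11.61 ± 0.15 in AC (SD, n = 3 each) differed by 2.44 (2.13 to 2.76, adjusted p = 4.69e-06), or 5.44-fold. AC also gave a signal well above background for both chains.

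Type V collagen, which sits inside type I fibrils and limits their width, did not change as a unit. Col5a1 measured 11.76, 11.94 and 11.97 in DFAT cells and 9.64, 10.05 and 10.19 in AC, without overlap. Its means were 11.89 ± 0.12 in DFAT cells and 9.96 ± 0.29 in AC (SD, n = 3 each), a difference of 1.93 (1.53 to 2.33, adjusted p = 6.47e-05). Col5a2 measured 13.05, 13.04 and 12.99 in DFAT cells and 10.89, 11.25 and 11.33 in AC, a difference of 1.87 (1.52 to 2.23, adjusted p = 3.73e-05). These chains were 3.81-fold and 3.66-fold higher in DFAT cells. The third chain went the other way. Col5a3 measured 8.65, 8.77 and 8.96 in DFAT cells and 9.20, 10.04 and 10.004 in AC, with every DFAT value below every AC value. It fell by 0.96 on the log2 scale (interval -1.51 to -0.41, adjusted p = 0.0141), and was the fibrillar chain called lower. The call for Col5a3 was lost without AC replicate 3, DFAT replicate 1 or DFAT replicate 2 and after centring on hybridization controls, and the difference was -1.23 without AC replicate 1.

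Type III collagen, which accompanies type I in soft tissues, showed no difference past the test. Col3a1 measured 12.93, 12.82 and 12.80 in DFAT cells and 12.62, 12.95 and 12.70 in AC. These values overlapped, and the difference of 0.09 had an interval of -0.23 to 0.42 (adjusted p = 0.64). A second probe set of Col3a1 gave 9.35, 8.95 and 8.96 in DFAT cells and 7.70, 8.66 and 8.89 in AC, a difference of 0.67 (adjusted p = 0.121), which was 0.31 without AC replicate 1. Col27a1, a fibrillar chain of cartilage, also overlapped, at 7.10, 7.07 and 7.01 in DFAT cells and 7.30, 6.93 and 7.25 in AC.

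Fibrillar chains known from cartilage were split between signal and background. Col2a1, the chain of the main cartilage collagen, measured 8.01, 8.12 and 8.15 in DFAT cells, while AC lay at background with 5.22, 4.60 and 4.48. The means of 8.09 ± 0.07 in DFAT cells and 4.77 ± 0.40 in AC (SD, n = 3 each) differed by 3.32 (2.85 to 3.80, adjusted p = 7.91e-06). Measured against the background level of each array in place of lower values, the difference was 2.28, which is a lower limit. Other cartilage markers did not accompany it, since Acan, Matn1, Comp and Cnmd were at background in both groups. Sox9, the transcription factor of cartilage cells, measured 6.53, 6.47 and 6.47 in DFAT cells and 7.61, 6.37 and 6.59 in AC. Col11a1, a partner of Col2a1 in cartilage fibrils, differed by 1.38 (adjusted p = 0.00107) at 5.07, 5.33 and 5.26 in DFAT cells and 3.55, 3.69 and 4.28 in AC, all at or under background. Col11a2 differed by 0.41 (adjusted p = 0.0351) and Col24a1 by -0.08, both at background in both groups.

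The basement membrane class held changes in both directions, with 3 genes higher, 3 lower and 3 not past the test of 9, and a median difference of 0.04. These counts stand beside 22.6% of all named genes higher and 23.8% lower, and for so few genes they are a description. The common type IV chains, which form most basement membranes, moved little. Col4a1 measured 12.93, 12.98 and 13.03 in DFAT cells and 12.34, 12.41 and 12.39 in AC. The groups did not overlap, and Col4a1 was 1.51-fold higher in DFAT cells (difference 0.60, interval 0.32 to 0.88, adjusted p = 0.005). Its call was lost after centring on reference genes, and a second probe set differed by 0.29 (adjusted p = 0.132). Col4a2, its partner in the same helix, measured 11.57, 11.72 and 11.71 in DFAT cells and 11.84, 11.42 and 11.50 in AC, which overlapped, with a difference of 0.08 (interval -0.27 to 0.43, adjusted p = 0.717).

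Larger increases were seen in Col4a5 and Col7a1. Col4a5, a type IV chain known for its loss in Alport syndrome, measured 9.75, 9.78 and 9.74 in DFAT cells and 5.65, 5.56 and 5.68 in AC, where it lay at background. The means of 9.76 ± 0.02 in DFAT cells and 5.63 ± 0.06 in AC (SD, n = 3 each) differed by 4.13 (3.85 to 4.41, adjusted p = 1.94e-07), and by 3.95 against the background level. Its second probe set differed by 3.72. Col7a1, the chain of the anchoring fibrils beneath epithelia, measured 8.87, 8.93 and 8.93 in DFAT cells and 5.72, 5.64 and 5.46 in AC. It was above background on 1 of the 3 AC arrays, and differed by 3.30 (2.9997 to 3.60, adjusted p = 7.33e-07), or 3.09 against the background level.

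Col15a1 and Col18a1, whose proteins carry glycosaminoglycan chains in basement membranes and release antiangiogenic fragments, were lower in DFAT cells. Col15a1 measured 7.66, 7.69 and 7.53 in DFAT cells and 9.33, 10.40 and 10.44 in AC. Its means were 7.63 ± 0.08 in DFAT cells and 10.06 ± 0.63 in AC (SD, n = 3 each), and it fell by 2.43 on the log2 scale (interval -3.10 to -1.76, adjusted p = 0.000298), with AC 5.39-fold above DFAT cells. Without AC replicate 1, the lowest AC array for Col15a1, the difference was -2.79. Col18a1 measured 7.44, 7.53 and 7.47 in DFAT cells and 8.17, 8.06 and 8.27 in AC, without overlap. It fell by 0.69 on the log2 scale (interval -0.98 to -0.39, adjusted p = 0.00336), a call that was lost after centring on hybridization controls. A second probe set of Col18a1 differed by -1.35 (adjusted p = 0.000122). The remaining type IV chains lay at background in both groups, Col4a6 at a difference of -0.70 (adjusted p = 0.0496), Col4a3 at 0.04 and Col4a4 at -0.43.

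In the network and beaded filament class 4 of 9 genes were higher, 0 were lower and 5 did not pass the test, beside 22.6% of all named genes higher and 23.8% lower. The 4 were the main type VI chains and Col8a1, and the class median was -0.03. Type VI collagen is abundant in fat tissue and links cells to the fibrils around them. Col6a1 measured 11.84, 11.86 and 11.77 in DFAT cells and 10.08, 10.63 and 10.53 in AC, a difference of 1.41 (1.02 to 1.804, adjusted p = 0.000325). Col6a2 measured 11.96, 12.08 and 12.03 in DFAT cells and 10.33, 10.99 and 10.96 in AC, a difference of 1.26 (0.81 to 1.71, adjusted p = 0.00125). For all of these chains the lowest AC value was on AC replicate 1. Col6a3, the long chain whose C-terminal fragment is endotrophin, measured 13.06, 13.17 and 13.19 in DFAT cells and 10.47, 11.002 and 10.90 in AC. Its means of 13.14 ± 0.07 in DFAT cells and 10.79 ± 0.28 in AC (SD, n = 3 each) differed by 2.35 (1.96 to 2.74, adjusted p = 1.73e-05), or 5.09-fold.

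Col8a1, a short-chain collagen of vessel walls and the cornea, measured 9.97, 9.81 and 9.84 in DFAT cells and 7.12, 6.02 and 5.99 in AC, where 2 of 3 arrays were above background. The means of 9.87 ± 0.08 in DFAT cells and 6.38 ± 0.64 in AC (SD, n = 3 each) differed by 3.50 (2.82 to 4.17, adjusted p = 4.24e-05), and by 3.87 without AC replicate 1, its highest AC array. Col8a2, the partner chain of Col8a1, stayed at background in both groups, as did Col10a1 of hypertrophic cartilage, Col26a1 and the type VI chains Col6a4 and Col6a5. The differences of these 5 genes lay between -0.22 and -0.03.

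The fibril-associated class held large differences in both directions. Of 9 genes 2 were higher, 2 were lower and 5 did not pass the test. With 22.6% of all named genes higher and 23.8% lower, these counts are a description. Col12a1, which bridges type I fibrils in tendon and dense connective tissue, measured 10.93, 10.95 and 10.98 in DFAT cells, while AC lay at background with 4.58, 4.93 and 5.48. The means of 10.95 ± 0.03 in DFAT cells and 5.00 ± 0.45 in AC (SD, n = 3 each) differed by 5.96 (5.44 to 6.47, adjusted p = 5.51e-07), and by 5.14 against the background level as a lower limit. A second probe set of Col12a1 differed by 3.24, and its remaining probe sets lay at background in both groups. Col16a1 measured 9.31, 9.55 and 9.45 in DFAT cells and 6.63, 7.08 and 7.29 in AC, without overlap. Its means of 9.44 ± 0.12 in DFAT cells and 7.0003 ± 0.34 in AC (SD, n = 3 each) differed by 2.44 (1.999 to 2.88, adjusted p = 2.83e-05), or 5.42-fold.

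Col14a1, a close relative of Col12a1 that also binds fibrils, ran opposite to it. It measured 3.98, 3.88 and 4.25 in DFAT cells, all at background, and 6.12, 6.93 and 7.21 in AC. The means of 4.04 ± 0.19 in DFAT cells and 6.75 ± 0.57 in AC (SD, n = 3 each) differed by -2.72 (interval -3.35 to -2.08, adjusted p = 0.000122). Against the background level the difference was -1.01, and without AC replicate 1 it was -3.03. One other probe set of Col14a1 fell by 1.31 on the log2 scale and the other differed by -0.17. The stromal fibroblast genes Pi16, Cd34, Fap, Dcn and Lum were lower in DFAT cells as well, and Pdgfra and Thy1 were higher. Col9a3, a type IX chain of cartilage, measured 4.81, 4.77 and 4.53 in DFAT cells and 6.05, 5.69 and 5.26 in AC, where 2 of 3 arrays were above background. It fell by 0.96 on the log2 scale (interval -1.45 to -0.47, adjusted p = 0.00787), but against the background level the difference was -0.19 (adjusted p = 0.597). Col9a1, Col9a2, Col19a1, Col20a1 and Col22a1 lay at background in both groups without a call, at differences of 0.05, -0.31, -0.04, -0.15 and 0.25.

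Of the 4 transmembrane collagens 3 were called lower in DFAT cells, against 23.8% of all named genes, but all 3 lay at background in both groups. Col23a1 measured 3.46, 3.46 and 3.27 in DFAT cells and 4.77, 4.88 and 5.48 in AC (difference -1.64, adjusted p = 0.00037). Col17a1, a hemidesmosome component of epithelia, measured 3.71, 3.47 and 3.54 in DFAT cells and 5.24, 4.47 and 4.27 in AC (difference -1.09, adjusted p = 0.0093). Col13a1 measured 3.93, 3.63 and 3.43 in DFAT cells and 4.45, 4.45 and 4.36 in AC (difference -0.75, adjusted p = 0.00642). None of these values exceeded the background level. Col25a1, which was above background, measured 5.76, 6.04 and 6.05 in DFAT cells and 6.48, 6.20 and 6.47 in AC, and its difference of -0.43 did not pass the test (adjusted p = 0.0543).

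**Figure D2:**
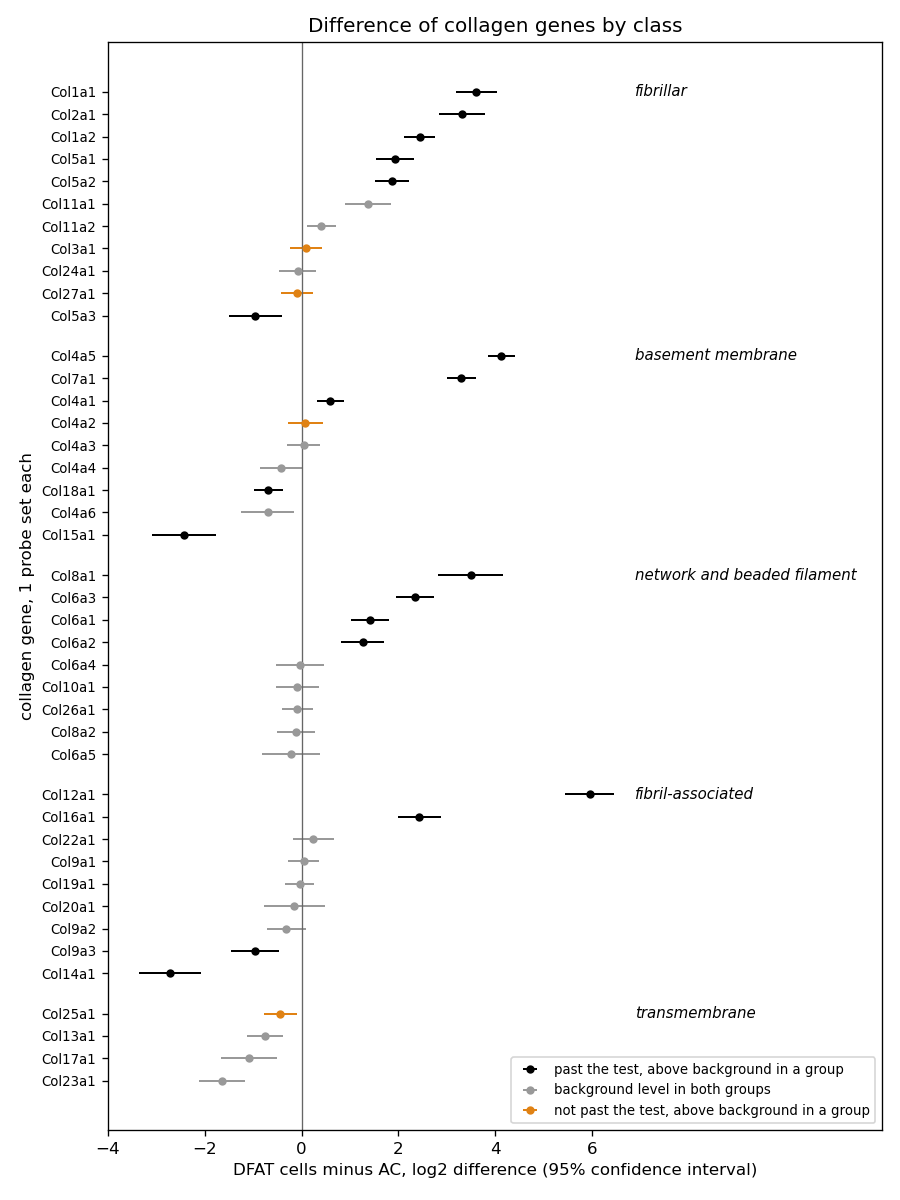
Log2 difference (DFAT cells minus AC) of each collagen gene with its 95% confidence interval from limma, by class. Differences run from -2.72 for Col14a1 to 5.96 for Col12a1, and within the fibrillar class Col5a3 lies at -0.96 while Col1a1 lies at 3.62.

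Chains that assemble together were then set against each other within each array, in 11 pairs. The levels of different probe sets cannot be compared, so only the change of a within-array difference between the groups was read. With 3 against 3 arrays the exact two-sided permutation test cannot give a p under 0.1, and after adjustment over the 11 pairs that p is 0.138. For type I, Col1a1 minus Col1a2 was -1.91, -1.93 and -1.84 in DFAT cells and -3.28, -2.82 and -3.10 in AC. The difference was thus larger in DFAT cells by 1.17 (exact p = 0.1), and by 0.53 when each gene was the mean of its probe sets. Another Col1a2 probe set, above background on all arrays, differed by 3.76 between the groups, against 3.62 for Col1a1. The direction of this shift therefore depends on the probe set taken for Col1a2. Col5a1 minus Col5a3 showed a larger shift, with 3.11, 3.17 and 3.02 in DFAT cells and 0.44, 0.01 and 0.19 in AC, a change of 2.89 (exact p = 0.1).

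Col5a1 minus Col5a2 changed by 0.06 (exact p = 0.6), with -1.29, -1.10 and -1.02 in DFAT cells and -1.25, -1.20 and -1.14 in AC. This change turned to -0.41 with the mean over probe sets. Within type VI, Col6a3 minus Col6a1 was 1.22, 1.31 and 1.41 in DFAT cells and 0.39, 0.37 and 0.37 in AC, a change of 0.94 (exact p = 0.1). Col6a1 minus Col6a2 changed by 0.15 (exact p = 0.2), with -0.12, -0.22 and -0.26 in DFAT cells and -0.25, -0.36 and -0.43 in AC. Col6a1, Col6a2 and Col6a3 were thus all higher in DFAT cells. Col6a3 and Col6a1 have 1 probe set each, so a larger change of Col6a3 cannot be told apart from an effect of the probe sets. Col4a1 minus Col4a2 was 1.36, 1.26 and 1.32 in DFAT cells and 0.51, 0.99 and 0.89 in AC, a change of 0.52 (exact p = 0.1). In the other 5 pairs at least 1 chain lay at background in both groups. Of all 11 pairs, 8 had values that did not overlap between the groups, some of them with a chain at background in both groups. For single values the groups did not overlap in 60% of all named genes, so this count is a description.

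**Figure D3:**
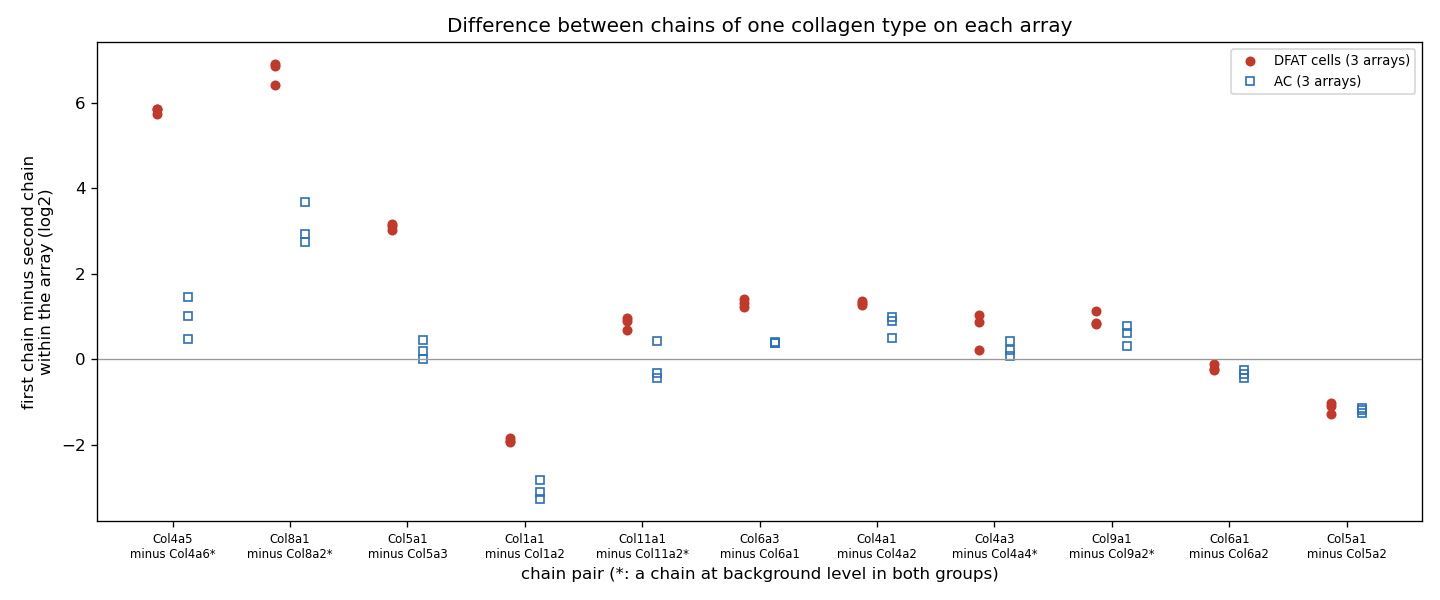
Within-array log2 difference between the chains of each pair, with DFAT cells left of AC and a point per array. The groups separate in 8 of 11 pairs, among them Col1a1-Col1a2, Col5a1-Col5a3 and Col6a3-Col6a1, and overlap in Col5a1-Col5a2. Some of the 8 hold a chain at background in both groups, and single values did not overlap in 60% of all named genes. The shift of Col1a1-Col1a2 depends on the probe set taken for Col1a2.

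Most calls were shared by the probe sets of a gene. Of the 42 genes 27 had several probe sets, and in 16 of these the representative passed the test. The further probe sets all shared its call in 9 of the 16, at least 1 missed the threshold in 7, and 0 were called in the opposite direction. Among the 14 genes above background and higher in DFAT cells, every probe set above background was also called higher in 13, the exception being Col4a1. The size of a difference depended on the probe set. For Col1a2 the probe sets differed by 2.44, 3.76 and 2.63, for Col5a2 by 1.87 and 2.37, and for Col8a1 by 3.50, 3.23 and 2.36. Probe sets whose name marks possible matches to other transcripts (ending in _s_at, _x_at or _a_at) represented 9 genes, and 13 genes were called higher when such probe sets were left out. Of the 82 probe sets, 28 were called higher and 13 lower, against 20.3% higher and 18.1% lower of all probe sets.

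**Figure D4:**
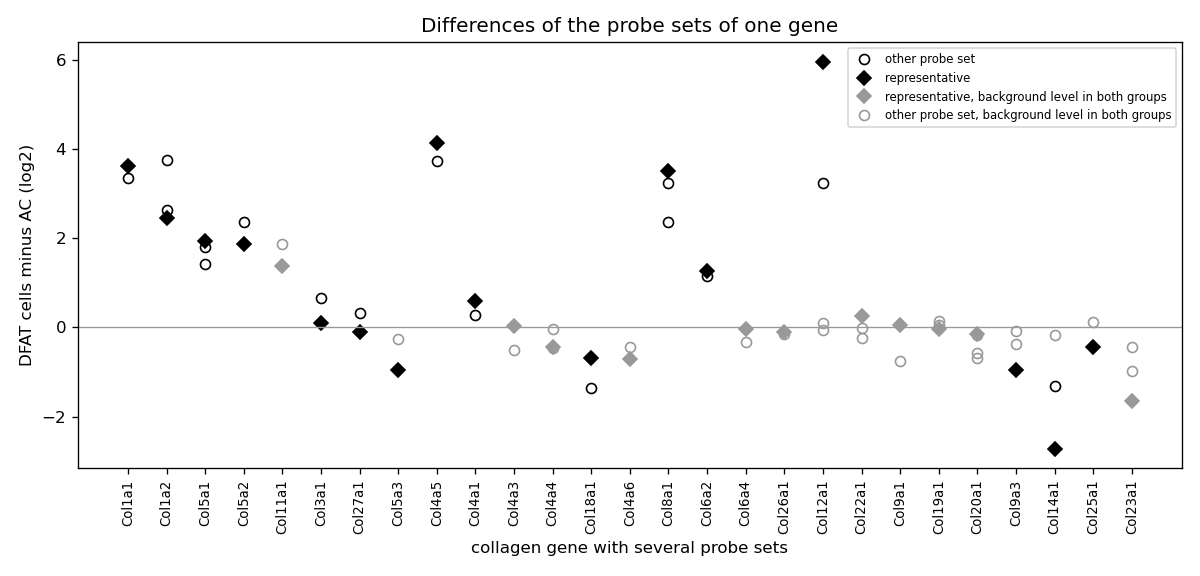
Log2 difference (DFAT cells minus AC) of every probe set of the collagen genes with several probe sets. Diamonds are the representatives, circles the other probe sets, and grey marks background level in both groups. The size differs between probe sets of a gene, as for Col12a1 at 5.96 and 3.24.

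Several collagen genes lie side by side in the genome, and adjacent genes did not move together in each case. Col4a5 and Col4a6 are transcribed away from each other on the X chromosome, with promoter windows 842 bases apart, and differed by 4.13 and -0.70, Col4a6 lying at background. The windows of Col4a1 and Col4a2, also on opposite strands, overlap by 78 bases, and these genes differed by 0.60 and 0.08. Col3a1 and Col5a2 are adjacent too, with differences of 0.09 and 1.87, whereas the neighbours Col6a1 and Col6a2 differed by 1.41 and 1.26. The RefSeq promoter windows of GRCm38.p6 (300 bases, most of them before the gene start) are given for 3 chains with large differences in either direction and for the type IV genes Col4a5, Col4a6 and Col4a1, so that the sequences can be set beside their differences. They are Col1a2 (chr6:4505368-4505667, plus strand), Col7a1 (chr9:108953336-108953635, plus strand), Col15a1 (chr4:47207762-47208061, plus strand), Col4a5 (chrX:141475169-141475468, plus strand), Col4a6 (chrX:141474027-141474326, minus strand) and Col4a1 (chr8:11312777-11313076, minus strand). Each runs 5′ to 3′ along the gene, and capitals mark matches on either strand to the CCAAT box (CCAAT), the GC box (GGGCGG), the TATA box (TATAAA) or the AP-1 motif (TGANTCA).
Col1a2: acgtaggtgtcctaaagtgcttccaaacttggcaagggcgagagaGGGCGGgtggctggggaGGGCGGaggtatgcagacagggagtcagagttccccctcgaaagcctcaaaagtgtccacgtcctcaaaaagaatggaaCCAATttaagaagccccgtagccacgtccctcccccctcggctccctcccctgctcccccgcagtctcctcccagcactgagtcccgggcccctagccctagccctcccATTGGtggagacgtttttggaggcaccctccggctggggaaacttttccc
Col7a1: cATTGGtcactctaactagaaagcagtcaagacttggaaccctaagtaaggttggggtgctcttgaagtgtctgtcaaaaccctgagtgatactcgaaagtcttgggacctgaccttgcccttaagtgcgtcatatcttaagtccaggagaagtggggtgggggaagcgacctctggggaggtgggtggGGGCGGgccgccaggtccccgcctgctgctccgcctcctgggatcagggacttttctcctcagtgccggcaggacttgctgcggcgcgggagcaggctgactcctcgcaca
Col15a1: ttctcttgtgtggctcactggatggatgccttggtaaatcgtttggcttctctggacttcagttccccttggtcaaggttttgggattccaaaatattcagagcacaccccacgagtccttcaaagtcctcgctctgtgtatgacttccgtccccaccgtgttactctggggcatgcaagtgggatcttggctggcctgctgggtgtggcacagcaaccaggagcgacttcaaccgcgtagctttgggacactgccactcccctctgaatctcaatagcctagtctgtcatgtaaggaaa
Col4a5: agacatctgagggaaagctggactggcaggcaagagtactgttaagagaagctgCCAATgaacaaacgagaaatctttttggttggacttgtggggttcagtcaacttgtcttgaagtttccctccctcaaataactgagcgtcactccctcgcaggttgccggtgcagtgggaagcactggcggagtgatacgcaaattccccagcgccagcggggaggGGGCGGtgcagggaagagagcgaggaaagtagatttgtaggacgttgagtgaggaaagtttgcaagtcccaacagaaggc
Col4a6: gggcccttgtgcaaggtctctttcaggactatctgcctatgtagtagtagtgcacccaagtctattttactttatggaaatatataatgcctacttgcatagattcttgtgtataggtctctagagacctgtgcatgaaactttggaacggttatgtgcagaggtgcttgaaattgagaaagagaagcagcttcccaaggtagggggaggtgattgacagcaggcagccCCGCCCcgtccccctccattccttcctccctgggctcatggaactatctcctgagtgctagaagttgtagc
Col4a1: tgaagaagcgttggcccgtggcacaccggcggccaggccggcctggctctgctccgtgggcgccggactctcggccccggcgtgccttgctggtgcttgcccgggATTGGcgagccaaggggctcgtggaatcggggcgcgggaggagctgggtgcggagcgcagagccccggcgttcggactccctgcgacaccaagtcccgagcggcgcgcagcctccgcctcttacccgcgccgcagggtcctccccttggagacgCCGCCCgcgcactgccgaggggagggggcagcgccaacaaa

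The window of Col1a2, 5.44-fold higher in DFAT cells, holds 2 CCAAT boxes and 2 GC boxes. The windows of Col7a1, Col4a5 and Col4a1 hold 1 of each, and that of Col4a6 holds 1 GC box. Col15a1, lower in DFAT cells, has no match in its window. A match is a description of the letters and not of a bound site. Over the 36 windows of 33 member genes, the GC box was found in 22, among them 11 of the 13 windows of genes higher in DFAT cells and 11 of the 23 others, against 35.7% of all 32851 mouse windows. The CCAAT box was found in 13 of 36, with 6 of 13 and 7 of 23, against 37.4% of all windows. The TATA box was found in 5, with 1 of 13 and 4 of 23, against 13.6%, and the AP-1 motif in 1, that of Col6a1, against 7.81%. The windows are not independent, since Col6a2 has 2 that overlap. Some members had no window, among them Col1a1, Col2a1, Col5a2 and Col12a1, all higher in DFAT cells, and Col14a1, which was lower. The 13 windows also include those of Col11a1 and Col11a2, which lay at background in both groups. These counts are therefore a description of the windows at hand and not of all higher genes.

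The genes that process collagen after translation were mostly higher in DFAT cells. Of 28 measured maturation genes (hydroxylases, chaperones, secretion factors, procollagen proteinases and cross-linking oxidases) 19 were higher, 1 was lower and 8 were not called. This stands beside 22.6% of all named genes higher and 23.8% lower. The median difference was 1.24 against -0.10 over all named genes. Loxl3, a cross-linking oxidase, measured 10.67, 10.80 and 10.75 in DFAT cells and 4.99, 5.13 and 5.75 in AC, a difference of 5.45 (adjusted p = 6.16e-07). AC lay at background for Loxl3, and against the background level the difference was 4.93. P4ha1, a prolyl 4-hydroxylase subunit needed for a stable helix, differed by 3.83 (adjusted p = 8.96e-06), with 10.46, 10.55 and 10.60 in DFAT cells and 6.14, 6.92 and 7.08 in AC. P3h3, of the prolyl 3-hydroxylase family, differed by 3.70 (adjusted p = 6.31e-07), with 9.05, 9.05 and 9.03 in DFAT cells and 5.53, 5.36 and 5.15 in AC. AC again lay at background, and the difference was 3.23 against that level. The member called lower was P3h2, which fell by 0.84 on the log2 scale. It lay at background in DFAT cells, and the difference was -0.23 (adjusted p = 0.389) against the background level.

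Collagen receptors and collagen-degrading enzymes held calls in both directions, beside 22.6% of all named genes higher and 23.8% lower, so the counts of these short lists are a description. Of 10 measured receptors 5 were higher, 3 were lower and 2 were not called, with a median difference of 0.51. Cd36, which binds collagen and takes up fatty acids and is abundant in fat cells, measured 3.09, 2.71 and 2.87 in DFAT cells and 13.05, 12.96 and 12.92 in AC, a difference of -10.09 (adjusted p = 2.53e-08). DFAT cells lay at background for Cd36, and against the background level the difference was -7.24. Mrc2, an uptake receptor for collagen fragments, measured 9.96, 10.10 and 10.19 in DFAT cells and 5.54, 6.99 and 7.19 in AC, a difference of 3.51 (adjusted p = 0.000217). Antxr1, a receptor that binds type VI collagen, differed by 2.81 (adjusted p = 0.000107), with 10.72, 10.75 and 10.74 in DFAT cells and 7.22, 8.29 and 8.25 in AC. Of 8 breakdown genes 2 were higher, 2 were lower and 4 were not called, with a median difference of -0.24. Mmp14, a membrane-bound collagenase, measured 11.32, 11.45 and 11.42 in DFAT cells and 7.53, 8.58 and 8.49 in AC (difference 3.20, adjusted p = 4.41e-05). Mmp2, a gelatinase that Mmp14 activates, measured 11.77, 11.80 and 11.80 in DFAT cells and 8.49, 9.76 and 9.78 in AC (difference 2.45, adjusted p = 0.000597). Both were thus higher in DFAT cells together with type I collagen. Fap, a protease of activated fibroblasts, measured 2.78, 2.46 and 2.52 in DFAT cells and 6.95, 7.94 and 8.10 in AC (difference -5.07, adjusted p = 5.37e-06). DFAT cells lay at background for Fap as well, and the difference was -1.92 against that level.

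**Figure D5:**
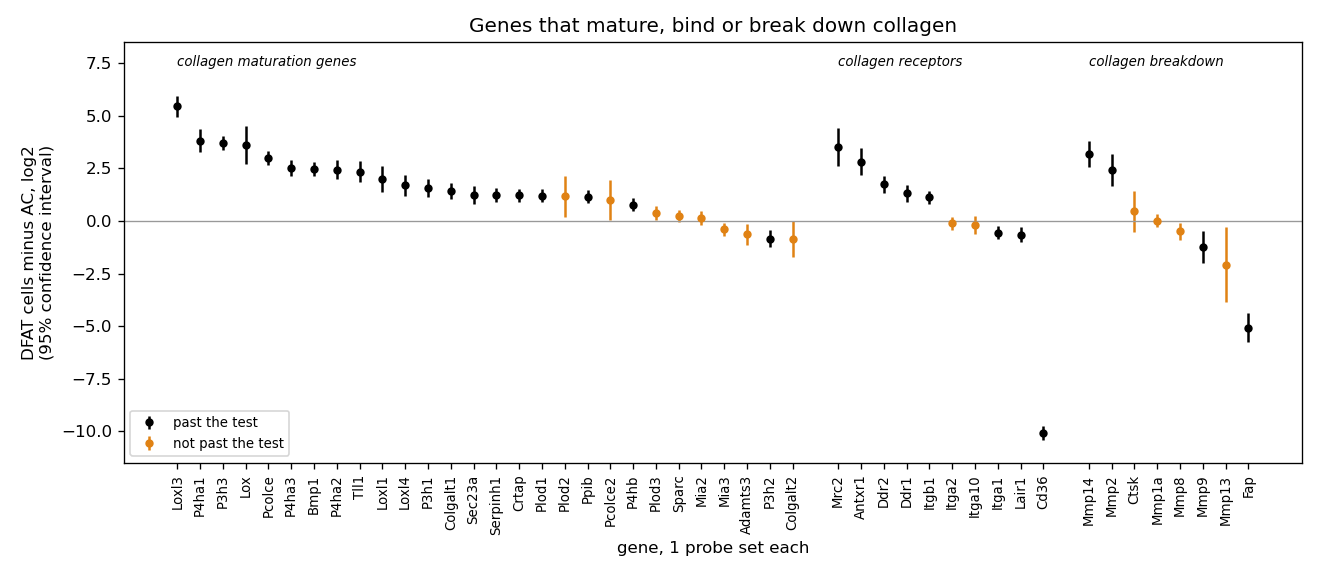
Log2 difference (DFAT cells minus AC) of the collagen maturation, receptor and breakdown genes. Points are differences of single genes, bars their 95% confidence intervals from limma, and orange marks genes not past the test. Of the maturation genes 19 of 28 were called higher, against 22.6% of all named genes. Cd36 lies at -10.09 and Fap at -5.07, both with DFAT cells at background and differences of -7.24 and -1.92 against the background level.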

How the data were processed

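RNA of 3 DFAT and 3 AC arrays was analysed. The log2 values were deposited by the authors after RMA, named without a version, which corrects background, normalizes between arrays and combines the probes of a set. The sources used here do not state which arrays entered that normalization, and scanner values were not used. The labels name a 3′ amplification labelling kit. Intensity, not depth, limits the precision of an array value, and 3 arrays a group limit that of each mean.

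Of 45101 probe sets 64 control probe sets were left out and 45037 were tested with limma 3.58.1 under R 4.3.3 (lmFit, then eBayes, two-sided, Benjamini-Hochberg over all 45037, threshold 0.05, no covariate). Intervals are 95% and unadjusted. The platform annotation gave 34945 probe sets 1 symbol, 932 several and 9160 none. Member symbols matched RefSeq by Entrez ID, with 0 that differed. Where a gene had several probe sets, the brightest on average represented it. The members and lists were chosen with earlier results of these data known. Per class, array values are given for up to 5 genes past the test with the largest difference and no overlap between groups, and for the 5 genes with the highest mean in each group. Of each other list the 3 genes with the largest difference past the test are given. Further genes were named after their values were seen.

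The background level came from 123 probe sets of 92 genes of other organs and is not a detection call. Where a difference is given against it, lower values were set to it on each array. Of those 92 genes 2 were called higher in DFAT cells and 10 lower. Of the remaining marker lists, of 5 mesothelial markers 1 was lower and all were at background in both groups, of 3 Schwann markers 3 were lower (sums of 14.1 to 15.3 on DFAT and 21.3 to 22.1 on AC arrays), of 6 chondrocyte markers 1 was higher (Col2a1 itself), and of 5 skeletal muscle markers 1 was lower.

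On simulated data with 200 of 45037 probe sets changed, 39% of log2 changes of 1 and 88% of log2 changes of 2 were found, beside 9 false calls, and unchanged data gave 0 calls. In the data 38.4% of probe sets were called, so the adjustment was stricter in the simulation. These shares and false calls therefore do not describe the reported test. The alternatives were other scalings, a filter on dim probe sets, a floor at background, other variance models, the fold rule of the methods and a Student t-test per probe set, a replicate block, other choices of probe set and leaving out each array. Python 3.11.15 with numpy 2.4.6 and matplotlib 3.10.9 drew the figures. Coordinates of promoter windows are those of RefSeq on GRCm38.p6.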

Additional observations from a re-analysis of the deposited data

How the results depend on the processing

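Of the 14 collagen genes above background and higher in DFAT cells, Col1a1, Col1a2, Col2a1, Col4a5, Col6a3, Col7a1, Col8a1, Col12a1 and Col16a1 kept direction and call under the alternatives of scaling, filter, variance model, fold rule, block, probe set mean and left-out arrays, as did Col14a1 and Col15a1 among the lower genes. Among these alternatives Col5a1, Col5a2, Col6a1 and Col6a2 lost the call under the 4-fold rule only. Col2a1, Col6a2 and Col16a1 have no probe set left when names ending in _s_at, _x_at or _a_at are left out, which gave 13 genes higher. Col4a1, Col5a3, Col9a3 and Col18a1 lost it under others too, among them centring on reference genes for Col4a1 and on hybridization controls for the rest. The number of collagen genes higher was 16 and became 9 under the 4-fold rule, without a test, and lay between 15 and 16 when single arrays were left out. The number lower was 9, and became 15 with centring on reference genes, 3 on hybridization controls, 5 with dim probe sets left out, 5 with the floor, 5 with the Student t-test, 2 under the 4-fold rule, and 7 to 10 with single arrays left out. Centring moved the median of all probe sets from -0.06 to -0.43 on reference genes and to 0.40 on hybridization controls, and the collagen median to -0.36 and 0.47. Over all probe sets 9152 were higher, or 1739 under the 4-fold rule, while the number of all probe sets lower was 8133, or 20591 with reference genes, 3405 with hybridization controls, 5226 with dim probe sets left out and 2005 under the 4-fold rule. Maturation genes lower numbered 1, or 4 with reference genes and 0 with hybridization controls, and 1 to 3 with single arrays left out. Receptor and breakdown genes lower numbered 5, or 10 with reference genes and 2 with hybridization controls, and 3 to 7 with single arrays left out. The mean over probe sets turned Col9a1 to -0.35 (adjusted p = 0.039) and, among the chain pair ratios, Col5a1-Col5a2 to -0.41 and the chain pair ratios Col9a1-Col9a2 to -0.0330. The floor put Col11a1 and Col11a2 at -0.068 each, where every array was at the floor and no difference was measured. Apart from the scalings and the rules that use fewer or fixed values by construction, the cause of these changes was not tested.

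Arrays with the same replicate number did not deviate together from their group means (correlations of -0.02, -0.03 and 0.01). Whether the numbers pair arrays by animal, culture or day is not stated, and so few arrays cannot decide it. With a replicate block 15 collagen genes were higher and 9 lower, Col11a2 losing its call, and 20 maturation genes were higher and 2 lower.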
